A study of Mus musculus with 45 samples.

Results

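Cholesterol is built from acetyl-CoA by a chain of enzymes whose genes are switched on together by the transcription factor SREBP2, and 28 genes of this system were followed in developing mouse limbs exposed to bisphenol AF (BPAF), a fluorinated bisphenol used in plastics. The genes were picked by name from the 35272 genes of the joined read count tables. They comprise 7 enzymes of the mevalonate arm, 12 enzymes of the sterol arm, 6 genes of SREBP2 and its regulation, and 3 sterol transport genes. The RNA came from forelimb buds of CD1 mouse embryos, dissected on gestation day 13 and kept in culture. The cultures received 1 µM or 5 µM BPAF or the vehicle DMSO alone (the control), and RNA was collected after 3, 24 or 48 h. These 9 groups held 5 libraries each, 45 in all. All groups shared the same strain, stage and vehicle, and per the labels limbs of both sexes were pooled in the culture bottles. The lowest library, however, had a summed level of 4 Y-linked transcripts of only 0.101 CPM (reads of a gene scaled to a common library total) in the control group at 3 h, 0.457 CPM at 1 µM and 3 h, and 0.162 CPM at 1 µM and 48 h, while the lowest of each other group was 53.9 CPM or more. Some labels were at odds with each other: a characteristic of 1 µM replicate 5 at 3 h names BPA at 10 µM, and the titles and library codes of 1 µM replicates 1 and 2 at 48 h are swapped. The group in the title was used throughout. No label tells separate culture days apart, and the p-values therefore measure the spread between libraries. How much of that spread is technical is not known. The Y-linked sum of control libraries at 3 h reached 155 CPM, so the libraries of that group did not all hold the same embryos.

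In cells, the mevalonate arm condenses acetyl-CoA units into isoprenoids, which the sterol arm joins into squalene, closes into lanosterol and trims to cholesterol. When membrane sterol is low, SCAP escorts SREBP2 from the endoplasmic reticulum to the Golgi, where proteases release the part that enters the nucleus. INSIG proteins hold SCAP back when sterol is plentiful, and Insig1 is itself a target of SREBP2. Embryos depend on this pathway, since Hedgehog proteins that pattern the limb carry cholesterol and since loss of its last enzyme, DHCR7, causes limb malformations in humans with Smith-Lemli-Opitz syndrome.

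All 28 genes were detected and passed the low-count filter in every comparison. Levels between genes were compared per length, as CPM per kb of the deposited gene length, in the 5 control libraries at 3 h. The highest mean was that of Acat2, which encodes the thiolase that makes acetoacetyl-CoA, at 47.0 CPM per kb. Srebf2, the gene of SREBP2, followed at 35.3, Mbtps1, a Golgi protease that cleaves it, at 34.5, and Npc2, which moves cholesterol out of lysosomes, at 33.8 CPM per kb. Hmgcs1, the HMG-CoA synthase, was at 30.3 CPM per kb. The lowest were Mbtps2, the other Golgi protease, at 3.04, Tm7sf2, a sterol reductase, at 2.61, and Fdps, the farnesyl diphosphate synthase, at 1.22 CPM per kb. Enzymes of each arm were thus spread over most of this range, and several neighbours in the order, such as Srebf2, Mbtps1 and Npc2, lay within each other's spread. Fdps, Tm7sf2 and Srebf2 each overlap another annotated gene on their own strand, so their values depend on how shared reads were assigned.

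**Figure D1:**
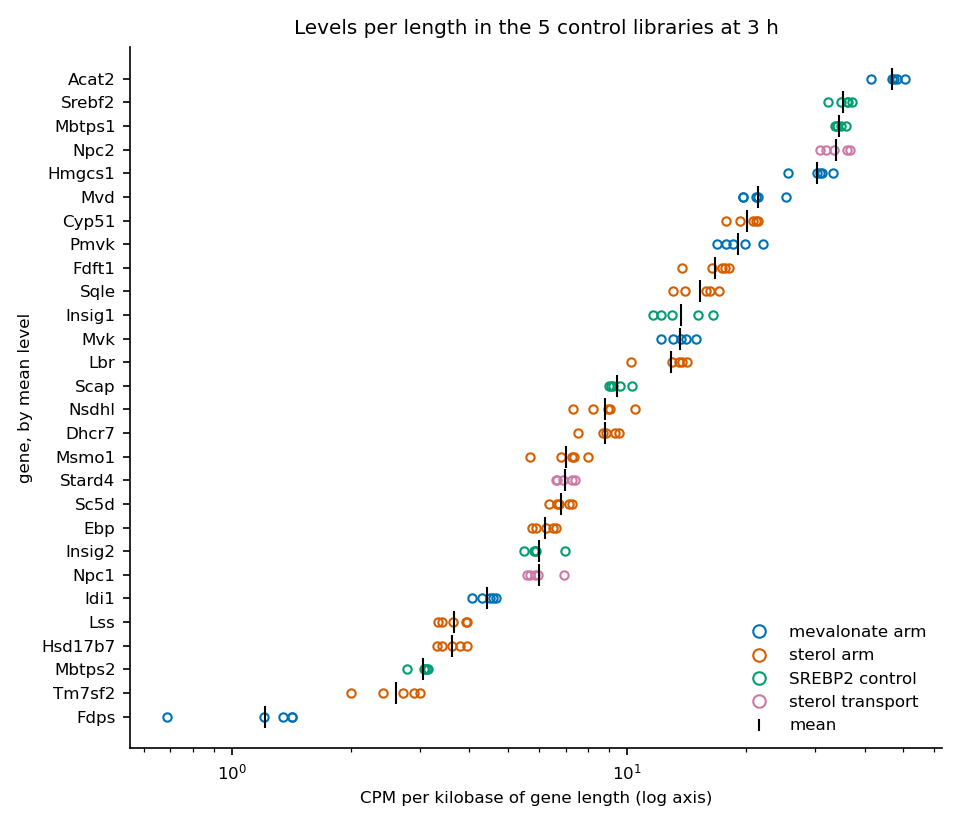
Level per length of the 28 genes in the control libraries at 3 h. The log axis gives CPM per kb, each circle is 1 of 5 libraries coloured by the role of the gene, and black ticks are means, which run down from 47.0 for Acat2 to 1.22 for Fdps.

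SREBP2 binds sterol regulatory elements close to the start of its target genes, often beside a CCAAT box bound by the factor NF-Y. The RefSeq promoter table (GRCm38.p6, the same assembly as mm10) held 23 of the 28 genes, and 5 were not matched (Fdft1, Fdps, Sqle, Npc1 and Stard4). The last 200 bases before the start are printed for 5 genes: Hmgcs1, Msmo1 and Dhcr7, which hold a match to a sterol regulatory element, Idi1, which had the highest fold change at 3 h of 5 µM BPAF, and Cyp51, which was called at 48 h. Each is written on the strand of its gene, and capitals mark matches to TCACNCCAC, to the looser TCACNNCAC or to CCAAT, each searched on both strands.
Hmgcs1 promoter, chr13:119690151-119690350, plus strand: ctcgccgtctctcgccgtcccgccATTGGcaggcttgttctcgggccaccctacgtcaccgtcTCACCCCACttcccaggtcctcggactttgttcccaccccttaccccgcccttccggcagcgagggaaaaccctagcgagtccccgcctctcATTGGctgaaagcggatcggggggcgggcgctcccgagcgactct
Msmo1 promoter, chr8:64733579-64733778, minus strand: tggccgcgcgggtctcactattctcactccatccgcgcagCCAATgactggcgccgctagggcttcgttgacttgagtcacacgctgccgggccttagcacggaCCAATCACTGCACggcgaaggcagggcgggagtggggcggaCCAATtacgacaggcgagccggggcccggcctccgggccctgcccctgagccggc
Dhcr7 promoter, chr7:143823199-143823398, plus strand: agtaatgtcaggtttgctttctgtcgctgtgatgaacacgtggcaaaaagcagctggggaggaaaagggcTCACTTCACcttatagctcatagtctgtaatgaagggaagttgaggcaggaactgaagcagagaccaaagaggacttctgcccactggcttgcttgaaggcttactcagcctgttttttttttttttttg
Idi1 promoter, chr13:8885406-8885605, plus strand: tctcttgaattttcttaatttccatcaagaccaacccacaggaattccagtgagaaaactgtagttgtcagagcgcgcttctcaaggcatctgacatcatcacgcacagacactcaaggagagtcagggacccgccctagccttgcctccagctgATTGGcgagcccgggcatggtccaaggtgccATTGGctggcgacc
Cyp51 promoter, chr5:4104698-4104897, minus strand: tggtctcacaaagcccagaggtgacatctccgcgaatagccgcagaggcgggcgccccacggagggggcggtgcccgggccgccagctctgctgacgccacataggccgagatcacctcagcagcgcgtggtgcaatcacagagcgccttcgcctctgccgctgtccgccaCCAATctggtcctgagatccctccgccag

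Within 250 bases upstream of the start, TCACNCCAC was found in 1 of 23 members, Hmgcs1, against 1.22% of 27025 genes with a promoter in the table. In Hmgcs1 it lay at positions -137 to -129 from the start, between CCAAT boxes read on the other strand. The looser TCACNNCAC was found in 4 of 23 members (Dhcr7, Hmgcs1, Hsd17b7 and Msmo1), against 3.63% of genes. In Msmo1 the match at -92 to -84 shared its first base with the last base of a CCAAT box. For Dhcr7 the window is that of 1 of 3 listed starts, chosen because it held the match at -130 to -122. CCAAT was found in 19 of 23 members, against 37.5% of genes. A match is a description of the letters, and these libraries do not measure binding.

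Library totals ran between 14901842 and 25154115 reads, with a median of 17820524, and no pair of replicates was identical within sampling noise. The 8 limb mesenchyme markers were detected in every group, as were the markers of the other cell types on the lists. In control limbs at 3 h the median summed level was 1810.0 CPM for limb mesenchyme and 4416 CPM for chondrocyte markers, beside 595 CPM for epidermal and 86.2 CPM for macrophage markers. A gene was called when the Benjamini-Hochberg adjusted p of edgeR's quasi-likelihood test, over all genes tested, was below 0.05. Values are CPM scaled by trimmed mean of M values (TMM), and log2 fold changes are given with their standard error.

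After 3 h of 5 µM BPAF, most of the enzyme genes had higher mean levels than in control limbs, but no member was called by edgeR. The call count was 0 of 28 members, against 0.18% of the 16651 genes tested, and 10 members had an unadjusted p below 0.05, against 8.55% of all genes. The log2 fold change was positive for 23 of 28 members with a median of 0.15, against 50.3% of all genes and a median of 0.00. Among the 19 enzymes it was positive for 17 with a median of 0.22, while the 6 genes of SREBP2 regulation had a median of 0.03 and the 3 transport genes 0.00. DESeq2 called 5 members higher (Dhcr7, Hmgcs1, Idi1, Insig1 and Sc5d), against 0.366% of the 14217 genes it tested, and limma-voom called 0. The authors' deposited table for this comparison also has these 5 genes below an adjusted p of 0.05, all higher with BPAF, with 0.37% of 30562 genes below it in either direction. In whole limbs, a difference in the number of cells of a type and a difference in RNA per cell cannot be told apart.

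In the mevalonate arm, Idi1 had the highest fold change. It encodes the isomerase that readies isoprenoid units for joining and lies on chromosome 13 from 8885501 to 8892451 on the plus strand (ENSMUSG00000058258). Its levels were 15.5, 21.3, 21.8, 24.8 and 20.2 CPM in 5 µM limbs at 3 h, against 15.1, 16.3, 14.2, 16.1 and 15.8 CPM in control limbs. Replicates 2 to 5 with BPAF lay above every control library, and replicate 1 lay within the control range. The log2 fold change was 0.42 ± 0.10 (adjusted p = 0.124, edgeR). Hmgcs1 (ENSMUSG00000093930), which lies on the same chromosome from 119690379 to 119708260, had 135, 188, 172, 201 and 169 CPM with 5 µM BPAF, against 144, 153, 118, 139 and 141 CPM in control limbs. The pattern over libraries was the same, with replicate 1 inside the control range and the other 4 above it. Its log2 fold change was 0.32 ± 0.08 (adjusted p = 0.166, edgeR). Acat2 and Pmvk, which act before and after the mevalonate step, differed little, with log2 fold changes of -0.04 ± 0.06 and 0.02 ± 0.08.

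In the sterol arm, Sc5d, which introduces a double bond into the sterol ring just before the last step, was the only member whose libraries did not overlap between groups at 3 h, 1 of 28, against 1.72% of all genes tested. Sc5d (ENSMUSG00000032018, chromosome 9 from 42251595 to 42264256, minus strand) had 37.6, 41.6, 42.7, 39.8 and 37.4 CPM with 5 µM BPAF, against 32.8, 34.7, 30.9, 32.5 and 35.4 CPM in control limbs. Its log2 fold change was 0.26 ± 0.06 (adjusted p = 0.101, edgeR). Dhcr7, the last enzyme of the pathway (ENSMUSG00000058454, chromosome 7 from 143823145 to 143848410, plus strand), had 52.7, 74.6, 63.7, 77.1 and 60.9 CPM with 5 µM BPAF. Control limbs had 54.3, 51.5, 43.9, 55.5 and 50.7 CPM, so that again only replicate 1 overlapped. The log2 fold change of Dhcr7 was 0.37 ± 0.09 (adjusted p = 0.104, edgeR). Msmo1, an oxidase that removes methyl groups from the sterol ring, had 41.5, 63.4, 55.7, 68.7 and 49.1 CPM with 5 µM BPAF, against 42.0, 44.7, 34.9, 49.0 and 45.3 CPM in control limbs. Replicate 5 exceeded the highest control library by a narrow margin and replicate 1 fell within the control range. Lss, the lanosterol synthase, and Cyp51, the lanosterol demethylase, had log2 fold changes of 0.32 ± 0.09 and 0.24 ± 0.07. Lbr, which doubles as a receptor for lamin B in the nuclear membrane, was the only sterol arm enzyme with a value below 0, at -0.01 ± 0.07.

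Of the regulators, Insig1 stood with the enzymes at 3 h and the rest did not. Insig1 (ENSMUSG00000045294, chromosome 5 from 28071363 to 28078662, plus strand) had 45.6, 58.8, 62.2, 59.8 and 49.5 CPM with 5 µM BPAF, against 51.2, 46.8, 36.1, 40.2 and 37.7 CPM in control limbs. Control replicate 1 lay above 2 of the 5 BPAF libraries. The log2 fold change was 0.38 ± 0.10 (adjusted p = 0.132, edgeR). Its paralog Insig2 had 0.04 ± 0.10, Srebf2 had 0.01 ± 0.06, and Scap, the escort, had 0.06 ± 0.05.

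**Figure D2:**
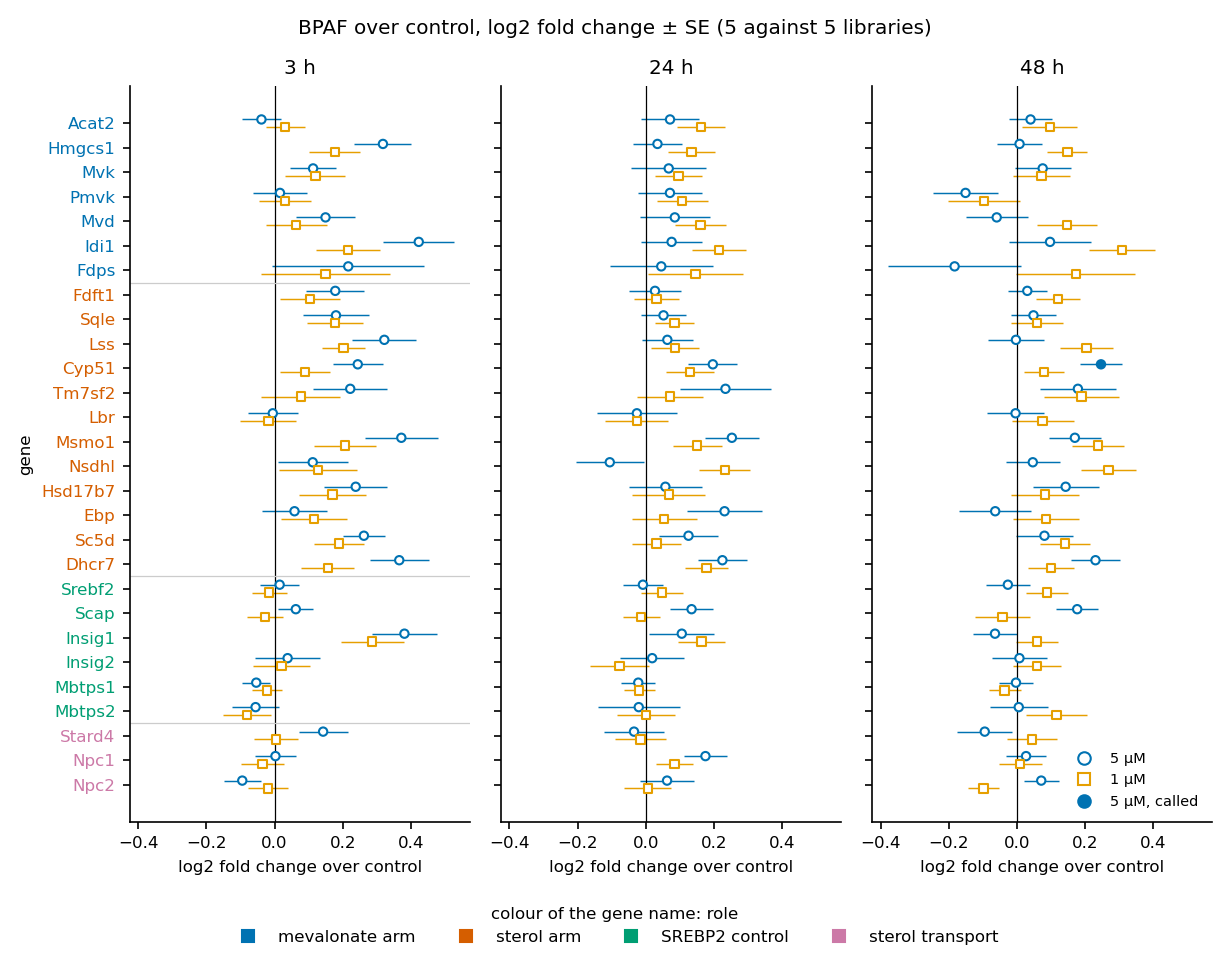
Log2 fold change over control of each member after 3, 24 and 48 h, with 5 µM BPAF as blue circles and 1 µM BPAF as orange squares. Bars are standard errors, gene names are coloured by role and filled marks were called by edgeR, which holds only for Cyp51 at 5 µM and 48 h, at 0.25.

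A single library weighed on the 3 h values. In the 5 µM group, replicate 1 was the lowest library for 15 of the 19 enzymes and replicate 4 the highest for 14. Without 5 µM replicate 1, edgeR called 7 members higher (Cyp51, Dhcr7, Hmgcs1, Idi1, Insig1, Lss and Msmo1), against 0.166% of the 16895 genes tested, and the median over members was 0.21. Leaving out any other library of this comparison called no member. The mean over enzymes of log2(CPM + 1) was 5.43 ± 0.161 with 5 µM BPAF and 5.25 ± 0.077 in control limbs at 3 h (SD, n = 5 each). Replicate 1 of 1 µM BPAF at 3 h and replicate 3 of the control at 3 h were the lowest of their groups for 10 enzymes each.

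**Figure D3:**
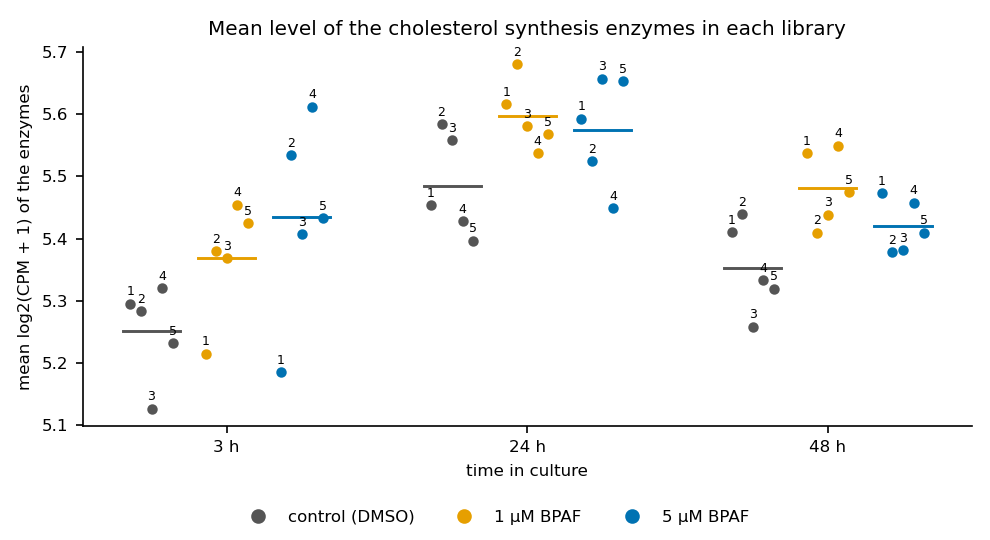
Mean of log2(CPM + 1) over the 19 enzymes in each library, by dose at 3, 24 and 48 h, with the replicate number beside each point and the group mean as a line. At 3 h the 5 µM group has the widest spread, with an SD of 0.161, and its replicate 1 lies among the control libraries.

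Other properties of the libraries moved with this difference. Summed Y-linked transcripts, which follow the share of male embryos in a pool, ran between 83.4 and 194 CPM with 5 µM BPAF at 3 h, with a median of 144 CPM. In control limbs they ran between 0.101 and 155 CPM, with a median of 80.4 CPM. With the Y-linked level as a covariate no member was called and the median over members was 0.07. All 10 epidermal markers had positive log2 fold changes, with a median of 0.25 and no call, and their summed level was 598 to 782 CPM with BPAF (median 654) against 438 to 692 CPM in control limbs (median 595). The part of epidermal cells in the member values was not tested.

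After 24 h of 5 µM BPAF the values of the members were closer to those of control limbs, and 0 of 28 members were called by edgeR, DESeq2 or limma-voom, against 1.57% of 16433 genes by edgeR. An unadjusted p below 0.05 was found for 5 members, against 11.6% of all genes. The median log2 fold change was 0.07 over the members and over the enzymes, and 22 of 28 members were positive, against 50.6% of all genes. Msmo1 was the only member of 28 without overlap between groups, against 3.55% of all genes. It had 68.3, 67.9, 79.0, 68.9 and 74.3 CPM in 5 µM limbs against 59.7, 65.5, 67.4, 55.4 and 52.1 CPM in control limbs at 24 h. The lowest BPAF library and the highest control library were close together, and the log2 fold change was 0.25 ± 0.08 (adjusted p = 0.162, edgeR). In a fit with replicate number as a block, Msmo1 and Cyp51 were called higher (adjusted p = 0.0364 and 0.0425, edgeR). Dhcr7 averaged 71.0 ± 6.09 CPM with 5 µM BPAF and 60.6 ± 3.79 CPM in control limbs at 24 h (SD, n = 5 each; adjusted p = 0.166, edgeR). Idi1 and Hmgcs1, which were among the higher members at 3 h, had log2 fold changes of 0.08 ± 0.09 and 0.03 ± 0.07 at 24 h. Summed muscle markers had a median of 2242 CPM with 5 µM BPAF at 24 h, against 3279 CPM in control limbs. Macrophage markers had 147 CPM against 205 CPM, while limb mesenchyme markers had 1457 CPM against 1385 CPM. The part of these cells in the member values was not tested.

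After 48 h of 5 µM BPAF, Cyp51 was higher than in control limbs and was the 1 member of 28 called, against 7.16% of 16345 genes called in either direction and 2.74% called higher. Cyp51 encodes the cytochrome P450 that demethylates lanosterol and lies on chromosome 5 from 4081145 to 4104746 on the minus strand (ENSMUSG00000001467). It had 129, 112, 134, 128 and 126 CPM in 5 µM limbs at 48 h, against 113, 103, 111, 97.5 and 101 CPM in control limbs. Only replicate 2 of the BPAF group fell inside the control range. The log2 fold change was 0.25 ± 0.06 (adjusted p = 0.0190, edgeR), and the adjusted p was 0.0600 without control replicate 4 and 0.0546 without control replicate 5. The gene ends beside Akap9 on the other strand, with 166 bases in common.

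Dhcr7 had 57.8, 64.2, 68.8, 71.3 and 74.2 CPM with 5 µM BPAF at 48 h, against 57.7, 60.8, 54.2, 52.3 and 58.2 CPM in control limbs. Its groups overlapped only through BPAF replicate 1, and the adjusted p was 0.0637 by edgeR and 0.0303 in the authors' deposited table, where 5.10% of 29822 genes were below 0.05. Without BPAF replicate 1 or control replicate 2, edgeR called 2 members in place of 1. Scap had a log2 fold change of 0.18 ± 0.06 (adjusted p = 0.105, edgeR), the highest of the regulators. Over all 28 members the median was 0.03 and 18 were positive, against 49.5% of all genes, and 4 had an unadjusted p below 0.05, against 19.3% of all genes. Lss, Hmgcs1 and Lbr had values of -0.00 ± 0.08, 0.01 ± 0.07 and -0.00 ± 0.08. At this time the summed muscle markers had a median of 2085 CPM with 5 µM BPAF, against 4738 CPM in control limbs, and the summed macrophage markers 184 CPM against 307 CPM. The part of these cells in the member values was not tested.

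**Figure D4:**
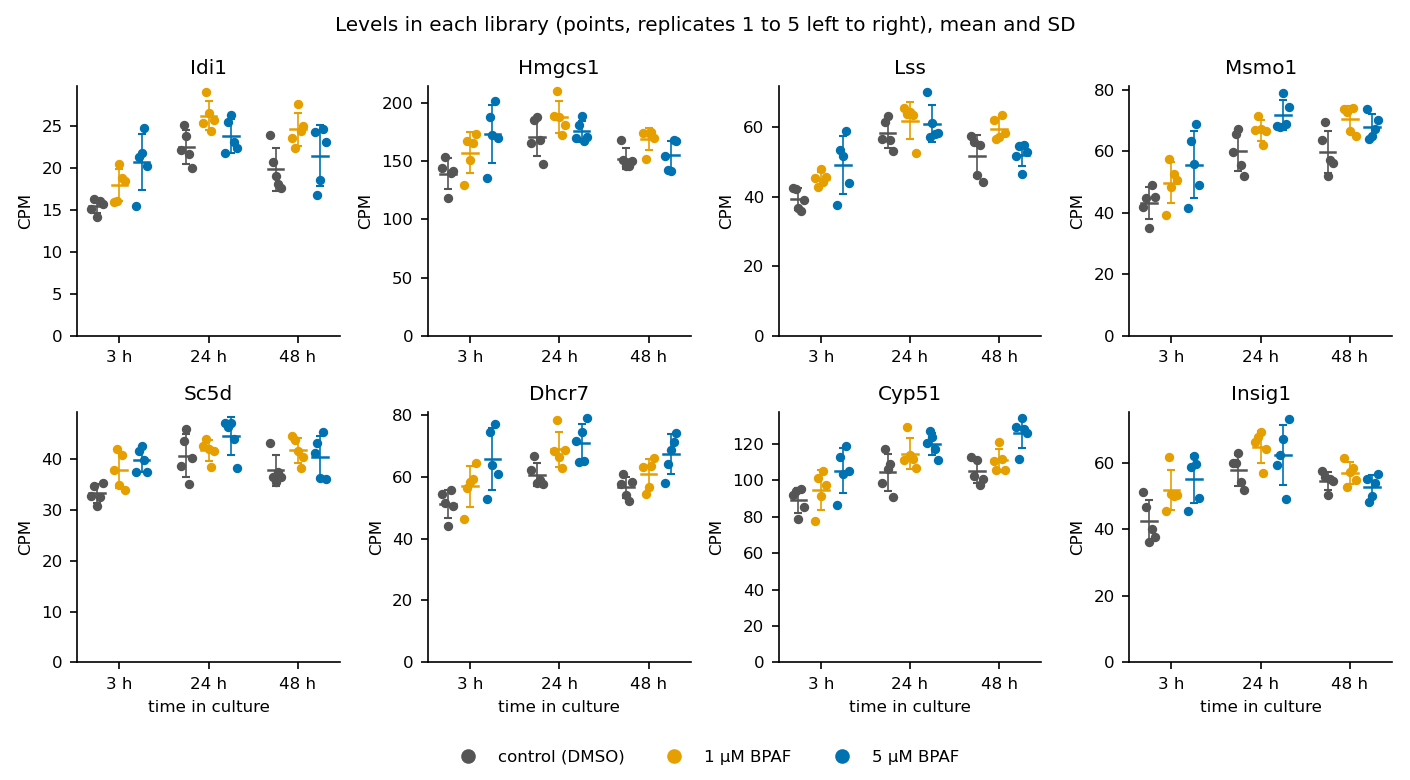
CPM of 8 members in each of the 45 libraries, by dose at 3, 24 and 48 h, with replicates 1 to 5 from left to right in each group and the mean and SD as lines. At 48 h Cyp51 reaches 134 CPM with 5 µM BPAF against at most 113 CPM in control limbs, and at 3 h replicate 1 of 5 µM BPAF sits with the controls for most genes.

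Whether the 5 µM effect differed between times was tested as the difference of fold changes over 20 libraries. No member passed for 24 h against 3 h (0.336% of 17535 genes called), for 48 h against 24 h (0.0693% of 17315) or for 48 h against 3 h (2.80% of 17558). These are edgeR counts, with 3, 0 and 4 members at an unadjusted p below 0.05 in the same order, and limma-voom gave 0 for all 3. DESeq2 gave 0, 0 and 1. Of all genes 7.56%, 4.65% and 12.4% had an unadjusted p below 0.05. For Insig1 the log2 effect at 48 h minus that at 3 h was -0.43 ± 0.12 (adjusted p = 0.0575, edgeR), and it was the member called by DESeq2, against 2.34% of genes called with a negative difference, and was called by edgeR without the low-count filter and when replicate 1 was left out of all groups. At 48 h Insig1 had 55.1, 48.3, 50.1, 53.8 and 56.7 CPM with 5 µM BPAF, against 57.5, 55.7, 50.2, 55.2 and 54.4 CPM in control limbs. The other members with an unadjusted p below 0.05 were Hmgcs1, at -0.30 ± 0.12, Npc2, at 0.18 ± 0.08, and Lss, at -0.31 ± 0.13.

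At 1 µM BPAF no member was called at any time by edgeR, DESeq2 or limma-voom. The background was 0.0% of 16631 genes at 3 h, 0.00608% of 16439 genes at 24 h and 0.0% of 16479 genes at 48 h by edgeR. Unadjusted p below 0.05 was found for 7, 7 and 5 of 28 members, against 2.55%, 2.67% and 3.77% of all genes. Positive log2 fold changes were found for 21, 23 and 24 of the 28 members at 3, 24 and 48 h, against 51.2%, 50.2% and 51.1% of all genes. Of the 19 enzymes, 18 had a positive log2 fold change at each time, with medians of 0.13, 0.11 and 0.12. These comparisons share their controls with those at 5 µM, so the 2 doses are not independent readings.

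Lss was the only member of 28 without overlap at 3 h, against 0.469% of all genes. It had 45.4, 42.9, 47.9, 44.2 and 45.6 CPM at 1 µM against 42.6, 42.3, 36.7, 36.0 and 39.1 CPM in control limbs, and a log2 fold change of 0.20 ± 0.06 (adjusted p = 1.00, edgeR). At 48 h that was Nsdhl, a dehydrogenase of the sterol demethylation steps (ENSMUSG00000031349, chromosome X from 72918557 to 72958514, plus strand), against 0.643% of all genes. Nsdhl had 38.9, 31.5, 34.4, 37.0 and 33.2 CPM at 1 µM against 27.7, 31.2, 31.5, 25.7 and 29.1 CPM in control limbs. The lowest 1 µM library and the highest control library were at the same rounded value, and the log2 fold change was 0.27 ± 0.08 (adjusted p = 0.998, edgeR). Idi1 averaged 24.6 ± 1.96 CPM at 1 µM and 19.9 ± 2.56 CPM in control limbs at 48 h (SD, n = 5 each), a log2 fold change of 0.31 ± 0.10. The mean enzyme level in control, 1 µM and 5 µM limbs was 5.25, 5.37 and 5.43 at 3 h, then 5.48, 5.60 and 5.58 at 24 h, and 5.35, 5.48 and 5.42 at 48 h, on the log2(CPM + 1) scale. Only at 3 h did the means follow the order of the doses, and the SD between libraries of a group ran between 0.044 and 0.161.

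Set directly against 1 µM, 5 µM BPAF gave no call among the members at 3 h (0.036% of 16681 genes called) or at 24 h (1.19% of 16496 genes), with limma-voom at 0 for both and DESeq2 at 0 and 1. At an unadjusted p below 0.05 there were 1 member against 5.93% of all genes at 3 h, and 2 members against 9.69% at 24 h. At 24 h DESeq2 called Nsdhl lower (adjusted p = 0.0368), against 1.55% of genes called lower. Without 5 µM replicate 5 edgeR called it too (adjusted p = 0.0120). Nsdhl had 35.2, 31.6, 36.0, 27.8 and 40.3 CPM at 5 µM against 43.8, 45.7, 38.4, 41.2 and 47.2 CPM at 1 µM. Only replicate 5 of the 5 µM group reached the range of the 1 µM group, and edgeR gave a log2 fold change of -0.34 ± 0.09 (adjusted p = 0.105). At 48 h Npc2, a soluble lysosomal cholesterol carrier (ENSMUSG00000021242, chromosome 12 from 84754562 to 84773152, minus strand), was the 1 member called, against 5.96% of 16349 genes called and 2.19% called higher, and 8 members had an unadjusted p below 0.05, against 18.1% of all genes. It had 207, 223, 222, 201 and 201 CPM at 5 µM against 192, 186, 185, 180 and 184 CPM at 1 µM, with no overlap, and control limbs had 188, 203, 200, 198 and 203 CPM. Its log2 fold change was 0.17 ± 0.05 (adjusted p = 0.0377, edgeR), and the call was lost when 5 µM replicate 1, 2 or 3 or 1 µM replicate 2, 3, 4 or 5 was left out. In this comparison summed muscle markers had a median of 2085 CPM at 5 µM against 4368 CPM at 1 µM, with 12 of 12 lower. Macrophage markers had 184 CPM against 252 CPM, with 6 of 12 lower, and chondrocyte markers 21327 CPM against 16197 CPM, with 4 of 10 higher, and their part in the value of Npc2 was not tested. At 3, 24 and 48 h, 21, 10 and 8 of 28 members had positive values for 5 µM against 1 µM, against 50.4%, 49.0% and 50.4% of all genes. Lss and Mvd, the decarboxylase that ends the mevalonate steps, also did not overlap but were not called by the edgeR test. This made 3 of 28 members without overlap, against 6.59% of all genes. DESeq2 called Lss lower (adjusted p = 0.0493), as did edgeR with replicate number as a block (adjusted p = 0.0342). That block fit also called Cyp51 higher (adjusted p = 0.0270, edgeR). Lss averaged 52.1 ± 3.33 CPM at 5 µM and 59.5 ± 3.00 CPM at 1 µM (adjusted p = 0.0654, edgeR), and Mvd 40.8 ± 2.40 CPM and 46.6 ± 2.46 CPM (SD, n = 5 each; adjusted p = 0.0754, edgeR).

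SREBP2 itself and the proteins that carry and cut it showed no call in the edgeR test of any comparison of dose or time. Scap was called higher with 5 µM BPAF at 48 h in some alternative fits. Against control this was the fit of all 45 libraries (adjusted p = 0.0402, edgeR). Against 1 µM it was that fit and the replicate block (adjusted p = 0.0119 and 0.0272, edgeR). Srebf2 (ENSMUSG00000022463, chromosome 15 from 82147181 to 82205379, plus strand) averaged 254 ± 13.4, 251 ± 13.1 and 256 ± 21.5 CPM in control, 1 µM and 5 µM limbs at 3 h. At 24 h it averaged 265 ± 14.8, 274 ± 23.1 and 264 ± 13.1 CPM, and at 48 h 261 ± 19.6, 278 ± 16.4 and 260 ± 19.0 CPM (SD, n = 5 each). With 5 µM BPAF its log2 fold changes were 0.01 ± 0.06, -0.01 ± 0.06 and -0.03 ± 0.06 at 3, 24 and 48 h. Mbtps1 averaged 350 ± 11.1 CPM with 5 µM BPAF and 364 ± 9.75 CPM in control limbs at 3 h (SD, n = 5 each), the largest of its differences from control at this dose. These are transcript levels, and the cleavage that activates SREBP2 was not measured.

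The largest movements of these genes came with time in culture. In control limbs at 24 h against 3 h, 13 of 28 members rose and 1 fell, against 37.8% of 16481 genes called, 19.1% higher and 18.7% lower. Enzymes made up 11 of the 13 that rose, and 19 of the 28 members. The others that rose were Insig1 and Stard4, a cytosolic sterol carrier. The median log2 fold change was 0.23 over the members and 0.29 over the 19 enzymes, and 16 members had an unadjusted p below 0.05, against 46.2% of all genes. DESeq2 gave the same counts, as did the authors' deposited table, in which 21.1% of 30207 genes had an adjusted p below 0.05. Of the 28 members 23 had positive values, against 48.8% of all genes.

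By arm, 3 of 7 mevalonate genes rose (Mvd, Idi1 and Hmgcs1), and 8 of 12 sterol arm genes rose while 1, Lbr, fell. Among all genes tested, 19.1% were called higher and 18.7% lower. Lss, the ring-closing lanosterol synthase (ENSMUSG00000033105, chromosome 10 from 76531588 to 76557138, plus strand), had 56.6, 61.5, 63.3, 56.4 and 53.1 CPM at 24 h against 42.6, 42.3, 36.7, 36.0 and 39.1 CPM at 3 h in control limbs. The times did not overlap, and its log2 fold change of 0.56 ± 0.07 had an adjusted p of 4.87e-06 by edgeR. For the comparisons between times in control limbs, the share of all genes without overlap was not counted. Idi1 had 22.1, 25.1, 23.9, 21.6 and 19.96 CPM at 24 h against 15.1, 16.3, 14.2, 16.1 and 15.8 CPM at 3 h, also without overlap (log2 fold change 0.54 ± 0.08, adjusted p = 7.67e-05, edgeR). Nsdhl had 33.8, 40.9, 36.1, 39.6 and 33.2 CPM at 24 h against 20.9, 25.5, 23.4, 29.9 and 25.8 CPM at 3 h. Tm7sf2, which shares its reductase step with Lbr (ENSMUSG00000024799, chromosome 19 from 6062821 to 6077197, minus strand), had 23.1, 24.0, 24.7, 16.9 and 22.5 CPM at 24 h against 15.2, 13.5, 16.8, 16.2 and 11.2 CPM at 3 h, close to touching through replicate 4. Its log2 fold change was 0.60 ± 0.12 (adjusted p = 0.00071, edgeR), and the gene overlaps Vps51 on the same strand. Lbr, in contrast, had 48.9, 51.6, 44.7, 48.5 and 36.7 CPM at 24 h against 64.6, 67.5, 61.8, 48.7 and 65.8 CPM at 3 h. Lbr fell by 0.42 ± 0.09 on the log2 scale (adjusted p = 0.00183, edgeR), with 3 h replicate 4 inside the 24 h range.

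Among the others, Insig1 had 60.1, 59.9, 62.9, 54.1 and 51.8 CPM at 24 h against 51.2, 46.8, 36.1, 40.2 and 37.7 CPM at 3 h, with a log2 fold change of 0.44 ± 0.09 (adjusted p = 0.000878, edgeR). The times came close but did not overlap. Msmo1, Mvd and Fdft1, the squalene synthase, rose by 0.47 ± 0.09, 0.39 ± 0.07 and 0.35 ± 0.07 on the log2 scale, and Hmgcs1, Sc5d, Stard4, Dhcr7 and Cyp51 by values between 0.23 and 0.29. Acat2, Mvk, Pmvk and Ebp, the sterol isomerase, had values of -0.04, -0.01, -0.10 and -0.12 and were not called. The calls of Cyp51 and Stard4 were lost when single libraries were left out: 24 h replicate 2 or 3 h replicate 3 for Cyp51, with adjusted p of 0.071 and 0.0546, and 24 h replicate 3 for Stard4, with 0.0502.

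The cell makeup moved with time as well. Of all genes tested at 24 h against 3 h, 19.1% were called higher, 18.7% were called lower and 48.8% had positive values. Summed chondrocyte markers had a median of 11005 CPM at 24 h against 4416 CPM at 3 h in control limbs, with 9 of 10 higher, and summed muscle markers 3279 CPM against 1250 CPM, with 10 of 12 higher. Limb mesenchyme markers had 1385 CPM against 1810 CPM, with 7 of 8 lower, and epidermal markers 271 CPM against 595 CPM, with 8 of 10 lower and 2 higher. Their part in the member values was not tested. The Y-linked sums ran between 181 and 315 CPM at 24 h and between 0.101 and 155 CPM at 3 h. With the Y-linked level as a covariate 9 members were called in place of 14, against 30.6% of all genes, and the calls lost were those of Cyp51, Dhcr7, Hmgcs1, Sc5d and Stard4. Because the Y-linked ranges of these times did not overlap, this fit cannot tell the Y-linked level and time well apart.

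Between 24 h and 48 h in control limbs, 4 of 28 members fell and none rose, against 16.3% of 16445 genes called, 9.71% higher and 6.57% lower. The 24 h libraries are also those of the comparison with 3 h, so these comparisons are not independent readings. Whether the course of the members changed at 24 h was not tested. In all, 9 members had positive values, against 47.6% of all genes, and 9 had an unadjusted p below 0.05, against 28.4%. Those that fell were Acat2 and Mvd of the mevalonate arm, and Fdft1 and Nsdhl of the sterol arm. Acat2 (ENSMUSG00000023832, chromosome 17 from 12942890 to 12960747, minus strand) had 81.7, 96.4, 93.0, 97.2 and 91.0 CPM at 48 h against 104, 119, 139, 110 and 111 CPM at 24 h. The 2 times did not overlap, and the log2 fold change was -0.35 ± 0.08 (adjusted p = 0.00495, edgeR). Fdft1 had 76.7, 75.0, 69.1, 72.2 and 76.5 CPM at 48 h against 84.9, 96.7, 93.7, 80.8 and 94.3 CPM at 24 h, again without overlap (log2 fold change -0.29 ± 0.06, adjusted p = 0.00403, edgeR). Nsdhl had the values 29.0 ± 2.43 CPM at 48 h and 36.7 ± 3.43 CPM at 24 h (SD, n = 5 each; adjusted p = 0.0077, edgeR). The call of Mvd, at -0.33 ± 0.09 (adjusted p = 0.0183, edgeR), was lost without 48 h replicate 5, with an adjusted p of 0.0525, or 24 h replicate 2, with 0.057. In the same comparison summed chondrocyte markers had a median of 18519.6 CPM at 48 h against 11005 CPM at 24 h, with 9 of 10 higher, and macrophage markers 307 CPM against 205 CPM, with 9 of 12 higher. Muscle markers had 4738 CPM against 3279 CPM, with 7 of 12 higher, and limb mesenchyme markers 1121 CPM against 1385 CPM, with 5 of 8 lower. Their part in the member values was not tested. Leaving out 24 h replicate 5 added Hmgcs1 to the calls (adjusted p = 0.0234), and leaving out 24 h replicate 4 or 48 h replicate 2 added Tm7sf2 (adjusted p = 0.0194 and 0.0431, edgeR).

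Over the whole span, 48 h against 3 h in control limbs, 8 of 28 members were higher and 2 lower, against 50.9% of 16539 genes called, 25.6% higher and 25.4% lower. Higher were Idi1, Lss, Cyp51, Msmo1, Sc5d, Insig1, Insig2 and Stard4, and lower were Acat2 and Lbr. Positive values were found for 24 members, against 48.8% of all genes, and an unadjusted p below 0.05 for 14, against 56.0%. Insig2 had 27.8, 25.0, 27.1, 27.4 and 26.9 CPM at 48 h against 19.1, 20.3, 20.5, 20.2 and 24.3 CPM at 3 h, with no overlap and a log2 fold change of 0.37 ± 0.08 (adjusted p = 0.000915, edgeR), and it was not called at 24 h against 3 h. Whether its course differed from that of Insig1 was not tested. Msmo1 had the highest value, 0.48 ± 0.09 (adjusted p = 0.000225, edgeR). The call of Sc5d, at 0.19 ± 0.07 (adjusted p = 0.0325, edgeR), was lost when 48 h replicate 1 or 3 h replicate 1, 2, 3 or 4 was left out. Over the same span 9 of 10 chondrocyte, 11 of 12 muscle and 10 of 12 macrophage markers were higher, and 8 of 8 limb mesenchyme and 10 of 10 endothelial markers were lower, and their part was not tested. Without 48 h replicate 3, Tm7sf2 was called too (adjusted p = 0.0188, edgeR).

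**Figure D5:**
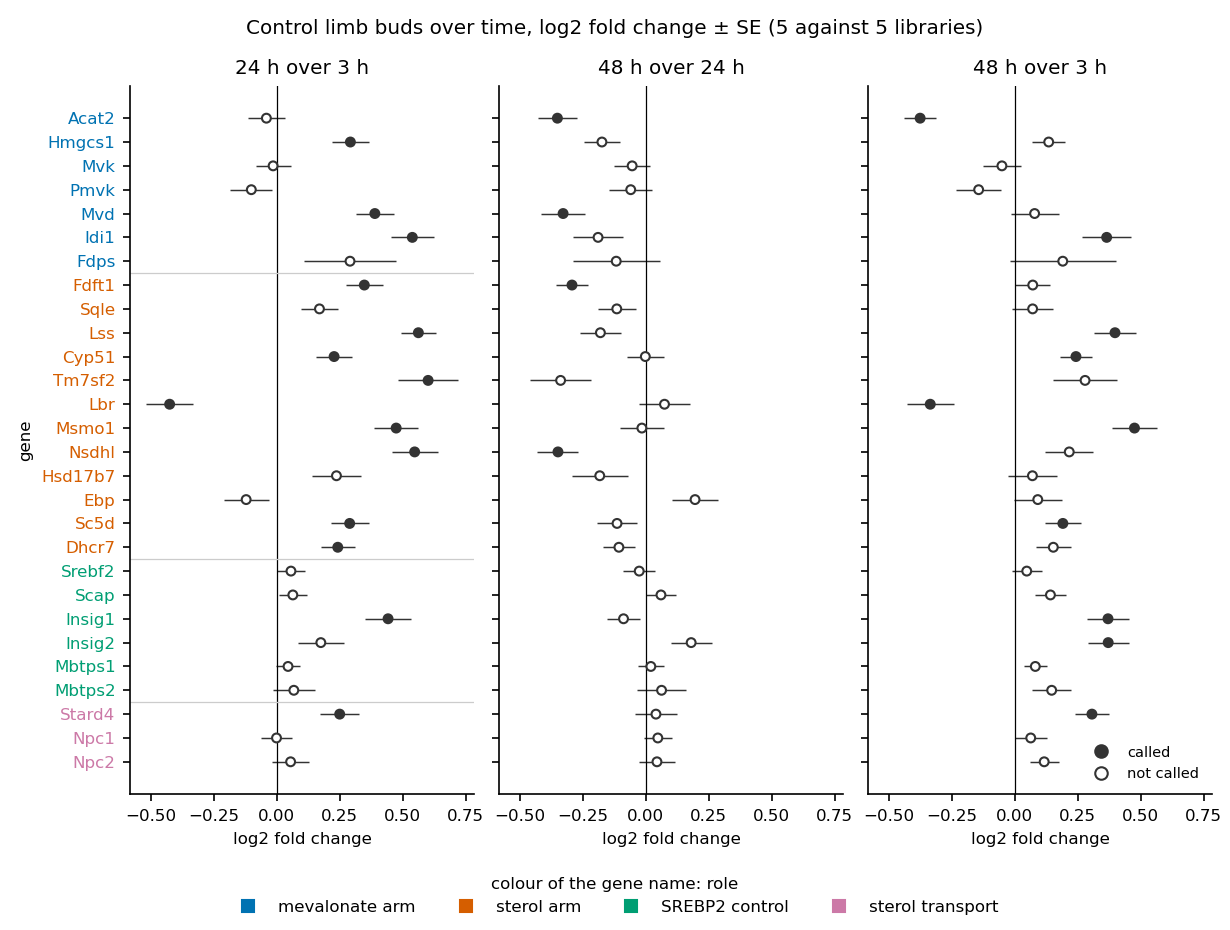
Log2 fold change between times in control limbs for the 28 members, with standard errors, for 24 h over 3 h, 48 h over 24 h and 48 h over 3 h. Filled marks were called by edgeR: 13 higher and 1 lower in the 24 h over 3 h panel, 4 lower in the 48 h over 24 h panel, and 8 higher and 2 lower in the 48 h over 3 h panel.

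Related lipid genes on fixed lists give the setting for the 5 µM values. Of 27 other sterol genes in the tables, none was called at 3 h or 24 h by edgeR, with 4 and 6 at an unadjusted p below 0.05. Among all genes tested, 8.55% and 11.6% had such a p. DESeq2 called Gramd1b and Tmem97 at 24 h. At 48 h, 7.16% of all genes tested were called in either direction. At that time Vldlr, a lipoprotein receptor, and Tmem97, a sterol-responsive membrane protein, rose by 0.38 ± 0.08 and 0.26 ± 0.07 on the log2 scale. Gramd1b, which carries cholesterol from the plasma membrane, fell by 0.58 ± 0.10 (adjusted p = 0.0012, edgeR). The call of Tmem97 at 48 h was lost when 5 µM replicate 1, 3 or 5 or control replicate 1 or 3 was left out. Targets of the liver X receptor, which senses oxysterols, fell at all 3 times, in 2, 4 and 5 of 11 genes tested and with none higher, against 0.18%, 1.57% and 7.16% of all genes called. At 3 h these were Abcg1 and Abca1, the cholesterol exporters, at -0.79 ± 0.11 and -0.49 ± 0.08. With Y-linked transcripts as a covariate Abca1 was no longer called (adjusted p = 0.0666, edgeR). Summed macrophage markers had medians of 84.8 CPM with 5 µM BPAF and 86.2 CPM in control limbs at 3 h. At 24 h these medians were 147 and 205 CPM, and at 48 h 184 and 307 CPM. The part of these cells in the values of the liver X receptor targets was not tested. Of 19 fatty acid synthesis and SREBP1 genes tested, 0, 1 and 3 fell at 3, 24 and 48 h and 1 rose at 48 h. The gene that fell at 24 h, Srebf1, was also 1 of the 3 at 48 h and is on the liver X receptor list too, so it is counted in both. Srebf1, the gene of SREBP1, averaged 91.8 ± 7.59 CPM in 5 µM limbs and 134 ± 4.96 CPM in control limbs at 24 h (SD, n = 5 each), a log2 fold change of -0.55 ± 0.07, while Srebf2 was at -0.01 ± 0.06. At 1 µM Abcg1 was called lower at 24 h, at -0.68 ± 0.07, and it was the only gene called at that dose and time. In control limbs at 24 h against 3 h, 13 of the other sterol genes rose and 1 fell, against 19.1% of all genes called higher and 18.7% called lower.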

How the data were processed

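The files were 9 tables of bulk RNA-seq from 45 libraries, and by its headers each table holds 2 groups of 5. Raw read counts were deposited by the authors beside normalized values, FPKM, log2 fold changes, p-values and adjusted p-values per gene. CASAVA 1.8, STAR 2.5, HTSeq 0.6.1 and DESeq2 and the build mm10 are named in the submitters' processing notes. The deposited normalized signal equals the count divided by a size factor per library, and the deposited FPKM equals count over length within 1 percent of scale. Tables were joined by gene identifier with no conflicting count, and 11.7% of gene and library combinations absent from a table were read as 0. Every row of the deposited count tables had a gene identifier. Counts were tested with edgeR 4.0.16 (R 4.3.3), using filterByExpr with a minimum count of 10 and a total of 15, TMM scaling and the quasi-likelihood test, separately for the 10 libraries of each pair of groups. DESeq2 1.42.0 and limma-voom 3.58.1 were alternatives, with fits without the filter, with a replicate block, with a Y-linked covariate, over all 45 libraries and without each library. Authors' log2 fold changes, p-values and adjusted p-values are named as such where printed. The edgeR test was checked on simulated counts for 1 pair of groups and 1 difference between effects. Unlike the data, these counts had the same dispersion for every gene and no difference between libraries beyond depth and the set fold changes. The members, lists, markers and tests were chosen with earlier results of these data known. By the rule for named genes any member could be named, and of each other list up to 4 called genes with the smallest p. Some genes of the pathway are not reported here. Replicate numbers met the rule for pairing only between 1 µM BPAF and control at 24 h, where the correlations of same-numbered libraries lay between 0.114 and 0.430. The edgeR test of every comparison, this 1 included, was fitted without pairing, and the replicate block was used only as an alternative. Gene positions, lengths and overlaps are those of the deposited tables (mm10), and promoter sequences are from RefSeq on GRCm38.p6.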

Additional observations from a re-analysis of the deposited data

Results flagged for a closer look

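Within groups of 5, a library was looked at again when its gap to the nearest other library, over the range of the group, exceeded Dixon's 95% critical value of 0.71. Of 333 combinations of a gene and a group, 17 did so, which is 5.11%, and chance alone gives about 1 in 20. In 12 the library was the lowest of its group and in 5 the highest. Values are CPM.

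In the mevalonate arm, Hmgcs1 stood high in control replicate 1 at 48 h, at 168 CPM with the nearest at 151 CPM, and low in 1 µM replicate 2 at 48 h, at 152 CPM with the nearest at 169 CPM. Fdps stood low in control replicate 3 at 3 h, at 2.89 CPM, and in control replicate 4 at 24 h, at 5.07 CPM.

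In the sterol arm, Sqle, the squalene epoxidase, stood low in 1 µM replicate 1 at 3 h, at 74.8 CPM, and in 5 µM replicate 4 at 24 h, at 90.0 CPM. Lss stood low in 1 µM replicate 5 at 24 h, at 52.6 CPM with the nearest at 63.5 CPM. Tm7sf2 stood low in control replicate 4 at 24 h, at 16.9 CPM, and in 1 µM replicate 3 at 48 h, at 17.1 CPM. Nsdhl stood low in 1 µM replicate 1 at 3 h, at 19.2 CPM with the nearest at 27.7 CPM. Lbr stood high in 5 µM replicate 1 at 3 h, at 66.8 CPM, in the library that was lowest for most enzymes. Sc5d stood high in control replicate 1 at 48 h, at 43.2 CPM.

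Among the other genes, Insig2 stood high in control replicate 5 at 3 h, at 24.3 CPM, and Mbtps2 low in control replicate 4 at 3 h, at 28.1 CPM. Stard4 stood low in control replicate 5 at 24 h, at 37.1 CPM with the nearest at 48.1 CPM. Npc1, the lysosomal membrane partner of Npc2, stood high in control replicate 2 at 3 h, at 74.2 CPM. Srebf1, which is not a member, stood low in control replicate 3 at 3 h, at 89.7 CPM.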

How the results depend on the processing

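For 5 µM BPAF against control at 3 h, 0 members were called in the edgeR test and 5 with DESeq2, 5 without the low-count filter, 1 with the replicate block and 1 with all 45 libraries in 1 fit. Leaving out single libraries gave 0 to 7, the 7 without 5 µM replicate 1. At 24 h the count of 0 became 2 with the replicate block. At 48 h the count of 1 became 2 with DESeq2, with the replicate block and with all 45 libraries, and ran from 0 to 2 without single libraries. For 5 µM against 1 µM at 24 h, the count of 0 became 1 with DESeq2, the replicate block or the Y-linked covariate. It also became 1 without the 24 h libraries highest in haemoglobin reads, which in this comparison meant only 5 µM replicate 5. The count ran from 0 to 1 without single libraries, and the 1 was that same fit. At 48 h the count of 1 became 2 with DESeq2, 0 without the filter, 4 with the replicate block and 3 with the block numbered by library code, and ran from 0 to 1 without single libraries. With the Y-linked covariate Nsdhl was called in place of Npc2, and with all 45 libraries in 1 fit Scap was. For control at 24 h against 3 h, 14 became 9 with the Y-linked covariate and ran from 13 to 15 without single libraries. The counts without single libraries ran from 3 to 5 for 48 h against 24 h and from 9 to 13 for 48 h against 3 h. For the 5 µM effect at 48 h minus 3 h, 0 became 1 with DESeq2 and without the filter, and ran from 0 to 1 without a replicate. No gene called in the edgeR test, or in an alternative other than leaving out 1 library, changed direction in the alternatives run for it. The other genes were not followed, and the causes were not tested. Over all genes at 5 µM and 3 h the count was 30 with edgeR, 115 with DESeq2, 79 without the filter and 62 with the replicate block. At 5 µM and 24 h it was 258, against 510 with DESeq2, 655 with the block, 463 with the Y-linked covariate and 587 with all 45 libraries in 1 fit. For the other comparisons and fits the counts over all genes are not given in this section. Their member counts are therefore not set against a background here and show only how the calls depend on the settings.

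Apart from 1 µM against control at 24 h, where the block changed no member call, replicate numbers did not meet the rule for pairing. Same-numbered libraries of 5 µM and control at 3 h had correlations between 0.024 and 0.485, with 2 of 5 above 0.1. At 3 h every library correlated best with its own number between 1 µM and control and between 5 µM and 1 µM, a hint from the data that the design does not record. Fdps, at 1.22 CPM per kb, had the fewest reads, and differences the size of its standard error of 0.22 at 3 h were not detectable at this depth.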
